A study of Homo sapiens with 8 samples.

Results

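Growth factor receptors and the CBL ubiquitin ligases that remove them from the cell surface were followed as 10 genes of the 20263 in the deposited expression table. They were the receptors EGFR, ERBB2, ERBB3, MET, AXL and FGFR1, the ligases CBL and CBLB, and the adaptors GRB2 and SHC1. The genes were chosen by their names, with their TPM in the EB and DMSO libraries already known. The differences between EB and DMSO are therefore described without p-values, and calls at a threshold are given for these genes as description only. The rest of the pathway was tested as separate lists. Those lists were also written with earlier results of these data known, so their p-values are not independent of that knowledge. The cells were PANC-1, an established human line of pancreatic ductal carcinoma. They were treated for 24 h with 10 μM eupalinolide B (EB), a sesquiterpene lactone from Eupatorium lindleyanum, or with the vehicle dimethyl sulfoxide (DMSO). RNA was sequenced from 4 cultures per group of this single line, and no other dose, time or line was sequenced here.

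Receptor tyrosine kinases span the cell membrane. A growth factor binding outside the cell brings receptors together, and they phosphorylate tyrosines on each other's tails. Adaptors such as GRB2 and SHC1 dock on these tyrosines and connect the receptor to RAS and the MAP kinases. CBL docks there too, directly or through GRB2, and attaches ubiquitin to the receptor, which is then taken up by endocytosis and sent to the lysosome. EGFR and its ligands are commonly expressed in carcinomas of the pancreatic duct. CBL transcript was the member with the largest log2 fold change in absolute size, with EGFR next.

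Promoter sequence from RefSeq (GRCh38.p14) was found for 7 of the 10 genes and read over the 250 bases before the gene's RefSeq start. The 3 windows printed here, 5′ to 3′ on the plus strand that each gene lies on, belong to EGFR, MET and AXL. EGFR had the largest log2 fold change in absolute size among the receptors, MET had a smaller one, and AXL did not pass the call. The windows are chr7:55018767-55019016 for EGFR, chr7:116671946-116672195 for MET and chr19:41218973-41219222 for AXL. Capitals mark the GC box GGGCGG on either strand.
EGFR: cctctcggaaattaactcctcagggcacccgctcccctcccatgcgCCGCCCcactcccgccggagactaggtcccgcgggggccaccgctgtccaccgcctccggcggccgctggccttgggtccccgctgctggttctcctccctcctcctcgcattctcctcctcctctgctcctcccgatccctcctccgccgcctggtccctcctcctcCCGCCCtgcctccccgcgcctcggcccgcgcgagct
MET: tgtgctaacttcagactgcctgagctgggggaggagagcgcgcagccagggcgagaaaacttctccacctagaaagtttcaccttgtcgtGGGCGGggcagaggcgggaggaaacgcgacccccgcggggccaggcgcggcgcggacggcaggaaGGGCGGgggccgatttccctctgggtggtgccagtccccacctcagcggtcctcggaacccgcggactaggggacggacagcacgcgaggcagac
AXL: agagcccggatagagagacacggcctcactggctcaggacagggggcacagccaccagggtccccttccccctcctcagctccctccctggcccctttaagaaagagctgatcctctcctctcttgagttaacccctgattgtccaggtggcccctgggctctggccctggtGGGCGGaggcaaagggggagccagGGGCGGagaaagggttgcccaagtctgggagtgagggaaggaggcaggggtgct
Each of the 3 windows holds 2 GC boxes, a motif present in 42.6% of the 35116 RefSeq windows of this length. Their GC content was 73.6% for EGFR, 68.4% for MET and 64.4% for AXL, where the median of all windows was 58.0%. The window of GRB2 holds 3 GC boxes, that of CBLB 1, and those of ERBB2 and SHC1 hold 0. The AP-1 site TGANTCA (6.57% of all windows) was found in ERBB2 only among the 7, the antioxidant response element core TGACNNNGC (10.9%) in CBLB only, and the TATA box TATAAA (10.7%) in none. Both strands were searched, and 2 of the 3 GC boxes of GRB2 overlap. A match is only a description of these letters. CBL, ERBB3 and FGFR1 have no printed window.

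Expression is given as TPM, a measure of each gene's share among all transcripts, corrected for transcript length that the authors computed for each library. Read counts are not part of the table, so the depth behind each value is unknown and counting intervals are not given. Between 11445 and 11894 genes had a TPM of 1 or more in DMSO libraries, and between 11353 and 11595 in EB libraries. The duct keratins KRT8, KRT18 and KRT19 were expressed in all libraries and had higher TPM with EB (KRT19 135 to 179 TPM with DMSO and 555 to 583 with EB), while the duct factor SOX9 was lower (128 to 172 and 43.9 to 72.1). The other duct and epithelial markers, KRT7, EPCAM and CDH1, did not exceed 0.458 TPM in any library. Of the 4 mesenchymal markers VIM (5882 to 7771 TPM over all libraries) and ZEB1 (6.33 to 15.6) were tested and not called, and FN1 and CDH2 did not exceed 0.798 TPM. The part of these markers in the results below was not tested. Of 11 markers of leukocytes, endothelium, fibroblasts, acinar and islet cells, 7 were listed at 0 in all libraries, 3 did not exceed 0.169 TPM, and ACTA2 was at 25.3 to 44.1 TPM with DMSO and 18.2 to 25.2 with EB. DMSO replicate 4 stood apart. Its 13 mitochondrially encoded genes took 39.0% of the TPM, against 17.0% to 21.1% in the other DMSO libraries and 11.6% to 20.3% with EB. TPM have a fixed sum, and the 10 genes together had 333 TPM in that library, 547 to 561 in the other DMSO libraries and 288 to 361 with EB. Values without the mitochondrial genes are therefore set beside the deposited ones below.

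TPM are corrected for length, so levels can be compared between genes. With DMSO the adaptor SHC1 was the most abundant of the 10 genes, at 251 TPM ± 45.8 (SD, n = 4). ERBB2 followed at 93.3 ± 26.0, and GRB2 at 41.8 ± 25.9, EGFR at 41.5 ± 9.60 and AXL at 33.1 ± 8.28 came next, each overlapping the gene above it in some libraries. CBL at 12.2 ± 3.54, FGFR1 at 9.62 ± 1.85, MET at 9.25 ± 1.77 and ERBB3 at 6.67 ± 1.53 overlapped with their neighbours in turn, and CBLB was last at 0.582 ± 0.385. With EB the order was SHC1, ERBB2, GRB2, AXL, EGFR, FGFR1, MET, ERBB3, CBL and CBLB. CBL thus moved from the sixth place to the ninth and EGFR from the fourth to the fifth. In this order GRB2 overlapped both ERBB2 and AXL, EGFR overlapped FGFR1, and CBL overlapped CBLB.

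**Figure D1:**
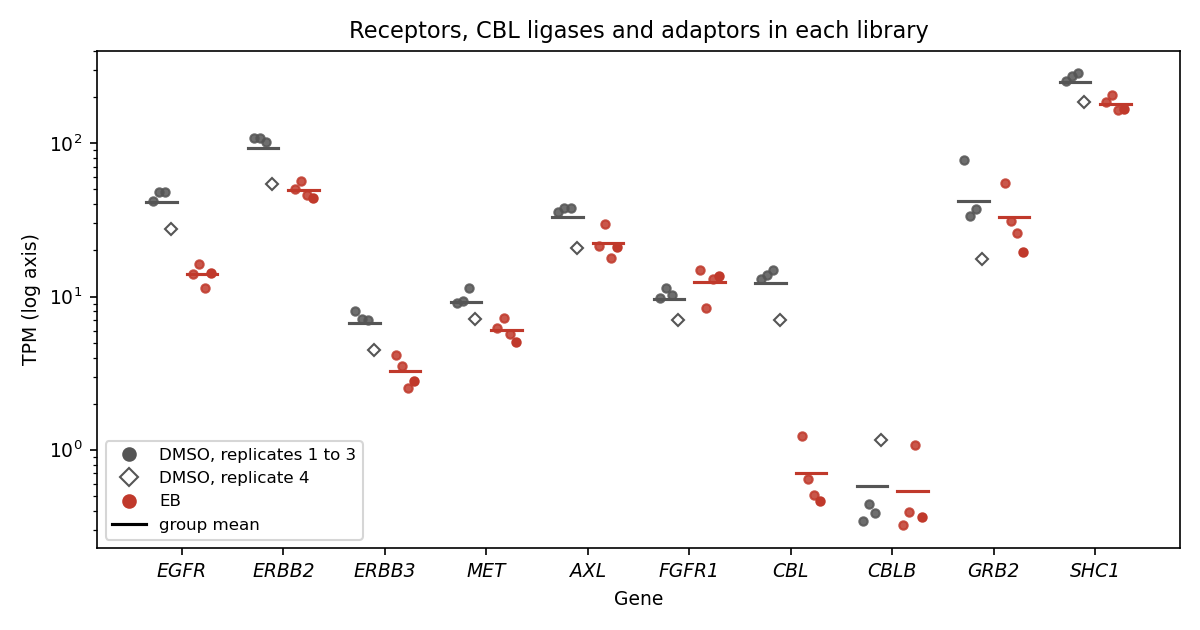
TPM of the 10 genes in each library on a log axis, with grey points for DMSO (open diamonds for replicate 4), red points for EB and a bar for the mean of each group (n = 4). The EB libraries lie below all DMSO libraries for CBL, EGFR and ERBB3, and the groups overlap for the other genes.

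EGFR, the receptor of EGF and amphiregulin, was lower in every EB library. Its TPM was 42.3, 47.8, 48.1 and 27.6 in DMSO replicates 1 to 4 and 14.0, 16.3, 11.3 and 14.2 in EB replicates 1 to 4. The groups did not overlap, although DMSO replicate 4 was the lowest of its group. The EB mean, 14.0 ± 2.06 (SD, n = 4), was 33.6% of the DMSO mean. On the log2(TPM + 1) scale, which understates the change of low genes, the log2 fold change was −1.48 (standard error 0.19). EGFR (ENSG00000146648) spans chr7:55019017-55211628 on the plus strand of hg38.

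ERBB2, the partner receptor with no known ligand of its own, had 108, 109, 102 and 54.7 TPM with DMSO. With EB it had 50.6, 56.8, 46.3 and 44.1 TPM. DMSO replicate 4 lay within the EB range, and the other DMSO libraries lay far above it. The EB mean was 53.0% of the DMSO mean, and the log2 fold change was −0.86 (standard error 0.22). With the mitochondrial genes left out and the TPM rescaled, ERBB2 was at 89.6 to 138 with DMSO and 52.7 to 66.6 with EB, without overlap. ERBB2 (ENSG00000141736, chr17:39687914-39730426, plus strand) shares 571 exonic bases with MIEN1 on the opposite strand, and whether counting used strand is not given in the sources used here. MIEN1 was at 113 to 154 TPM with DMSO and 157 to 179 with EB.

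ERBB3, a neuregulin receptor whose own kinase is nearly inactive, had 8.05, 7.13, 7.01 and 4.48 TPM with DMSO and 4.13, 3.52, 2.52 and 2.80 with EB. The groups did not overlap, by a narrow margin between DMSO replicate 4 and EB replicate 1. Its log2 fold change was −0.85 (standard error 0.19). ERBB3 (ENSG00000065361) spans chr12:56076799-56103505 on the plus strand. ERBB4, the last receptor of this family, did not reach the level needed for testing.

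MET, the receptor of hepatocyte growth factor, had 9.12, 9.31, 11.4 and 7.13 TPM with DMSO and 6.26, 7.27, 5.70 and 5.04 with EB. EB replicate 2 lay just above DMSO replicate 4, so the groups overlapped. The log2 fold change was −0.53 (standard error 0.16), and the call was lost in 8 of the 18 alternatives at an adjusted p under 0.05 and with the study's stricter thresholds. MET (ENSG00000105976) spans chr7:116672196-116798377 and AXL (ENSG00000167601) chr19:41219223-41261766, both on the plus strand. AXL, the receptor of GAS6 and protein S, had 35.5, 38.1, 37.9 and 20.8 TPM with DMSO and 21.3, 29.6, 17.7 and 21.2 with EB. Here too DMSO replicate 4 lay among the EB libraries. The log2 fold change of AXL was −0.52 (95% confidence interval −1.01 to −0.03), and it did not pass the call at an adjusted p under 0.05 in limma.

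FGFR1, a receptor of fibroblast growth factors, was the only one of the 6 receptors whose EB mean was above its DMSO mean. Its TPM was 9.72, 11.4, 10.3 and 7.05 with DMSO and 14.8, 8.39, 13.0 and 13.6 with EB. EB replicates 1, 3 and 4 lay above every DMSO library and EB replicate 2 lay within their range. The log2 fold change was 0.33 (95% confidence interval −0.11 to 0.77) and did not pass the call. FGFR1 (ENSG00000077782) spans chr8:38400215-38468834 on the minus strand. Without EB replicate 2 the call was passed, as it was with quantile normalization and after removal of a trend on length and GC (described below).

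CBL, the ubiquitin ligase of activated receptors, was far lower in every EB library. It had 13.1, 13.8, 14.9 and 6.98 TPM with DMSO and 1.23, 0.641, 0.504 and 0.465 with EB. The lowest DMSO library was several times above the highest EB library, and 3 of the 4 EB libraries were below 1 TPM. The EB mean of 0.710 ± 0.355 (SD, n = 4) was 5.83% of the DMSO mean of 12.2 ± 3.54. The log2 fold change was −2.92 (standard error 0.23, 95% confidence interval −3.43 to −2.40), and −3.95 with a pseudocount of 0.1, since the EB values are low. In bulk RNA, fewer expressing cells and less RNA per cell cannot be told apart. CBL (ENSG00000110395) spans chr11:119206298-119313926 on the plus strand of hg38, and 509 of its exonic bases overlap MCAM on the opposite strand. MCAM was at 0.536 to 1.28 TPM with DMSO and 0.639 to 1.33 with EB.

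CBLB, the close relative of CBL, had 0.342, 0.444, 0.389 and 1.16 TPM with DMSO and 0.321, 0.394, 1.07 and 0.365 with EB. A single library in each group was above 1, and CBLB was not tested because it had a TPM of at least 1 in fewer than 4 libraries. CBLC, the third of the family, was listed at 0 in every library. CBL was thus the main ligase transcript of the family with DMSO, while with EB the libraries of CBL (mean 0.710 TPM) and CBLB (mean 0.536 TPM) overlapped. CBLB (ENSG00000114423) spans chr3:105655461-105869552 on the minus strand.

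The genes whose profile over the 8 libraries was most like that of CBL were TNFAIP3, PRODH, MBNL2, GAS1 and OAS3. Likeness was the root mean square difference of log2(TPM + 1) after centring each gene on its own mean, and was 0.20, 0.21, 0.30, 0.31 and 0.33 in that order. TNFAIP3, itself a ubiquitin editing enzyme that limits NF-κB signaling, went from 18.0 ± 4.29 TPM with DMSO to 1.86 ± 0.939 with EB (SD, n = 4). PRODH, the proline dehydrogenase, went from 7.77 ± 1.26 to 0.260 ± 0.0553. It was at 0.208 to 0.337 TPM in the EB libraries and passed the filter through the DMSO libraries alone. These genes were ranked by that likeness alone, which picks genes with a similar difference between EB and DMSO and is not a result separate from it.

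GRB2, the adaptor that binds SOS, had 78.4, 33.7, 37.5 and 17.6 TPM with DMSO and 55.5, 31.2, 25.9 and 19.6 with EB. Both groups spread widely and overlapped over most of their range. The log2 fold change was −0.24 (95% confidence interval −1.19 to 0.70), and without DMSO replicate 1 it was 0.12. SHC1, the adaptor that binds GRB2, had 257, 277, 287 and 185 TPM with DMSO and 185, 207, 165 and 167 with EB. Of the EB libraries, replicate 2 lay above DMSO replicate 4 and all 4 lay below the other DMSO libraries. The log2 fold change of SHC1 was −0.46 (standard error 0.16), and its call was lost in 8 of those 18 alternatives and with the study's thresholds. GRB2 (ENSG00000177885) spans chr17:75318076-75405709 and SHC1 (ENSG00000160691) chr1:154962298-154974395, both on the minus strand. SHC1 shares 335 exonic bases on the same strand with PYGO2, which was at 21.5 to 38.3 TPM with DMSO and 33.3 to 39.7 with EB, well below SHC1.

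**Figure D2:**
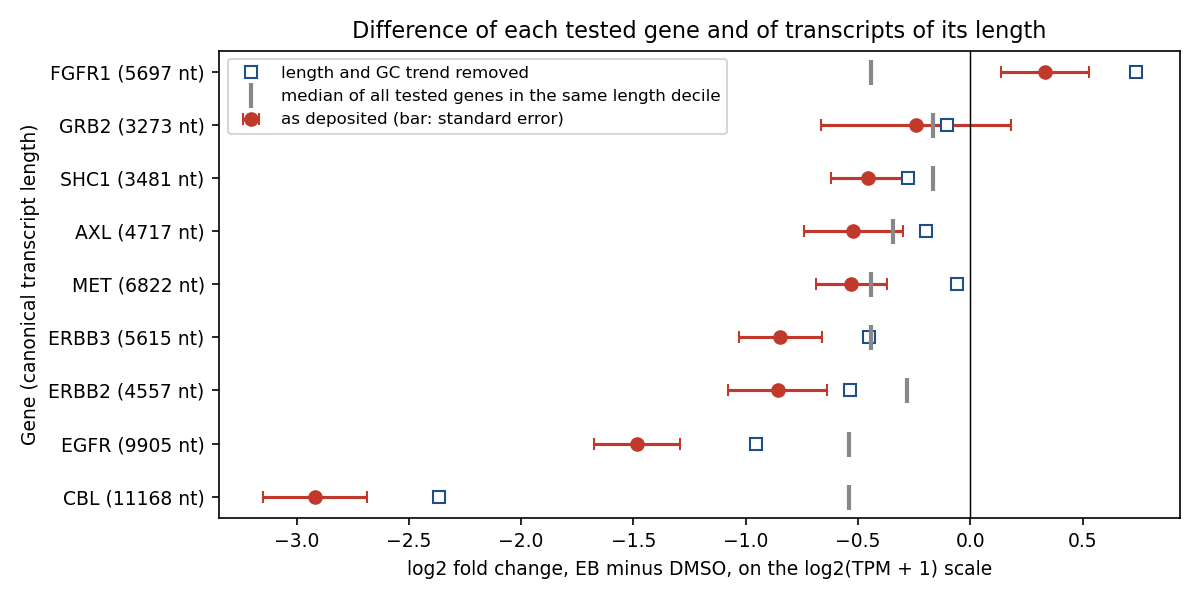
Log2 fold change of each tested gene, EB minus DMSO, on the log2(TPM + 1) scale, as deposited (red, bars are standard errors, n = 4 per group) and with the length and GC trend removed (blue squares), beside the median of all tested genes in the same decile of transcript length (grey). CBL lies at −2.92 and EGFR at −1.48, well below the −0.54 of their decile, and MET at −0.53 lies near the −0.44 of its own.

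Of the 10 genes 9 were tested. Genes of all the table entered the same limma fit, 11725 in all, and a call was a Benjamini-Hochberg adjusted p under 0.05. CBL, EGFR, ERBB2, ERBB3, MET and SHC1 were called lower with EB (6 of 9, where 25.1% of all tested genes were), and 0 were called higher (background 15.2%). Since the genes were chosen with this contrast known, nothing is read from these shares. Every EB library was below every DMSO library for CBL, EGFR and ERBB3 (3 of 9, background 20.3%). With the study's thresholds, an unadjusted p under 0.05 and a log2 fold change below −1.5, CBL alone was called lower (background 1.54%). On the log2(TPM + 1) scale used here EGFR at −1.48 lay just outside. With a pseudocount of 0.1 EGFR was at −1.54, and the paper does not state the scale of its own fit. The median log2 fold change of the 9 genes was −0.53 and that of all tested genes −0.11. Without the mitochondrial genes 6 genes did not overlap between the groups, namely CBL, EGFR, ERBB2, ERBB3, MET and SHC1, and 37.2% of the 11967 genes that pass the filter on that scale had every EB library below every DMSO library. There SHC1 was at 304 to 363 with DMSO and 188 to 243 with EB, and MET at 11 to 14.5 and 6.33 to 8.52.

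Scaling moved the whole table, so the difference of each gene is best read against all genes. The fit of the deposited TPM called 2944 genes lower and 1785 higher. The counts were 3019 lower and 3153 higher with median-ratio scaling, 2759 and 2792 with quantile normalization, 4954 and 1451 without the mitochondrial genes, and 2548 and 2850 with the length and GC trend removed. The median of all genes was 0.01, 0.02, −0.28 and 0.02 under these in turn. CBL, EGFR, ERBB2 and ERBB3 were called lower under each of these 4 scalings, SHC1 too, and MET under all but quantile normalization and removal of the length and GC trend. AXL, not called as deposited, was called lower under median-ratio scaling, quantile normalization and without the mitochondrial genes. Relative to the median of all genes in the deposited scale, CBL was at −2.81, EGFR at −1.38, ERBB2 at −0.75, ERBB3 at −0.74, MET at −0.42, AXL at −0.41, SHC1 at −0.35, GRB2 at −0.13 and FGFR1 at 0.44.

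Long transcripts were lower with EB across the table. Among all tested genes the length decile with the longest transcripts (7317 to 34626 nt) had a median log2 fold change of −0.54 with 49.5% called lower, and the decile with the shortest (276 to 1225 nt) a median of 0.41 with 6.93% called lower. CBL (11168 nt) and EGFR (9905 nt) belong to the longest decile, and ERBB3, MET and FGFR1 to the one before it, whose median was −0.44. Once each library was corrected for a trend on length and GC content, the log2 fold change was −2.37 for CBL, −0.95 for EGFR, −0.54 for ERBB2, −0.45 for ERBB3 and −0.28 for SHC1, all still called lower. MET was then at −0.06 and not called. FGFR1 was at 0.74 and was called higher. AXL at −0.20 and GRB2 at −0.10 were not called. The part of transcript length in the deposited differences was not tested beyond this removal.

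Ratios taken within a library do not depend on the fixed sum of TPM. They do keep the trend on transcript length, and EGFR (9905 nt) is longer than ERBB2 (4557 nt) and SHC1 (3481 nt). ERBB2 over EGFR was 2.55, 2.28, 2.11 and 1.98 in the DMSO libraries and 3.62, 3.48, 4.09 and 3.10 in the EB libraries. The ratio was higher in every EB library, including against DMSO replicate 4, whose levels of both genes were low. SHC1 over EGFR was 6.13 ± 0.398 with DMSO and 13.1 ± 1.21 with EB (SD, n = 4), so EGFR was lower relative to its adaptor as well. EGFR over CBL went from 3.48 ± 0.343 to 22.5 ± 8.15, with a lowest EB value of 11.3. The size of this ratio with EB is uncertain, since CBL was at 0.465 to 1.23 TPM there and the read depth is unknown. The receptor transcript was thus lower with EB and its ligase transcript lower still. ERBB2 over ERBB3, the partners of one dimer, was 13.8 ± 1.34 with DMSO and 15.6 ± 2.51 with EB, and these libraries overlapped. ERBB2 over AXL was 2.81 ± 0.186 and 2.24 ± 0.307, without overlap between 2.63 and 2.61. SHC1 over GRB2 was 7.41 ± 3.02 and 6.21 ± 2.14 and overlapped. The pairs were picked after the levels had been seen.

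**Figure D3:**
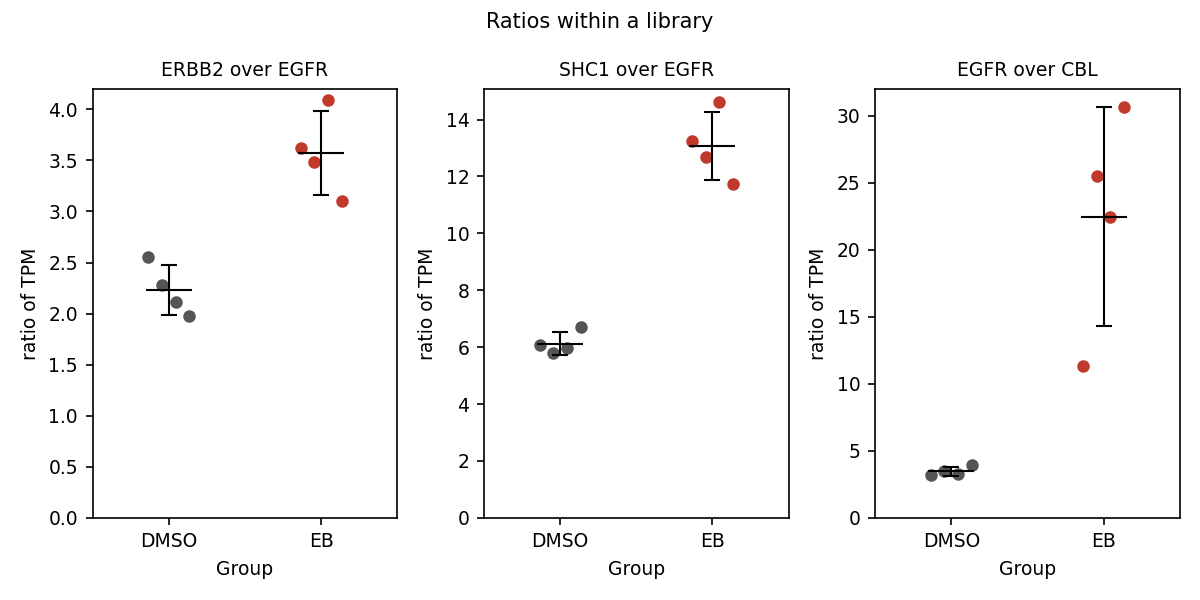
Ratios of TPM within each library for ERBB2 over EGFR, SHC1 over EGFR and EGFR over CBL, with points for libraries, horizontal lines for group means and bars for the SD (n = 4 per group). Each ratio is higher in every EB library than in any DMSO library.

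The rest of the pathway was read from 5 lists written by hand, with 176 genes, of which 115 were tested. Over all 5 lists 46 genes were lower and 10 higher with EB at a limma adjusted p under 0.05, beside 25.1% lower and 15.2% higher of all tested genes, and their median log2 fold change was −0.36. With the length and GC trend removed, 26 were lower and 24 higher, beside 21.8% lower and 24.4% higher of all genes tested in that fit. The split of these lists thus changed when both trends were removed together. Each p-value sets a mean difference against the spread among the 4 libraries of each group, which limma adjusts with the help of all genes. The libraries are cultures of a single line.

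Of 31 ligands of these receptors 10 were tested, and 5 fell and 3 rose (50% and 30%, beside 25.1% and 15.2% of all tested genes). Betacellulin (BTC) fell from 13.5 ± 1.17 to 4.63 ± 1.20 TPM (SD, n = 4). Its log2 fold change was −1.39 (limma adjusted p = 0.000375). PROS1, which encodes the AXL family ligand protein S, fell from 19.5 ± 1.61 to 8.93 ± 0.536 (limma adjusted p = 0.00025). HBEGF, a further EGFR ligand, rose from 3.08 ± 0.358 to 10.4 ± 0.212 TPM, with a log2 fold change of 1.49 (limma adjusted p = 4.47e-05). The remaining rises were FGF1, from 0.945 ± 0.297 to 1.67 ± 0.331 TPM, and FGF5, from 0.917 ± 0.118 to 1.67 ± 0.139. They were named after their values were seen, and neither would pass the filter on its DMSO libraries alone. With a filter at 5 TPM, 1 ligand rose (17.1% of all genes). The most abundant EGFR ligand was amphiregulin (AREG), at 123 ± 4.87 TPM with DMSO and 67.8 ± 3.22 with EB, and epiregulin (EREG) went from 64.8 ± 7.47 to 34.6 ± 2.26. Both fell, with log2 fold changes of −0.86 (limma adjusted p = 0.000459) and −0.88 (limma adjusted p = 0.000852), and were named after their values were seen. Of the EGFR ligands tested, HBEGF therefore moved against AREG, EREG and BTC. TGFA was listed at 0 in every library, and HGF, the ligand of MET, did not exceed 0.189 TPM.

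Of 48 other receptor tyrosine kinases 20 were tested, and 10 fell and 1 rose (50% and 5%, beside 25.1% and 15.2% of all tested genes). PTK7, a pseudokinase of WNT signaling, fell from 16.2 ± 4.29 to 4.44 ± 0.516 TPM, a log2 fold change of −1.63 (limma adjusted p = 0.000318). IGF1R, the insulin-like growth factor receptor, was at −1.54 (limma adjusted p = 0.00204). DDR1, a collagen receptor, fell from 23.7 ± 7.03 to 9.21 ± 1.12 TPM (limma adjusted p = 0.00274). The receptor that rose was EPHA8, an ephrin receptor at 1.42 ± 0.505 TPM with DMSO and 2.80 ± 0.427 with EB, named because it was the only rise in this fit. The median of the list was −0.50. Lower calls were 6 without DMSO replicate 1, 2 or 3 (16.9% to 18.5% of all genes) and 5 without EB replicate 3 (18.1%). Higher calls were 3 with median-ratio scaling (26.8% of all genes) or quantile normalization (23.8%) and 5 with the length and GC trend removed (24.4%). They were 0 with a filter at 5 TPM (17.1% of all genes).

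Of 36 other adaptors and docking proteins 29 were tested, and 13 fell and 1 rose (44.8% and 3.45%, beside 25.1% and 15.2% of all tested genes). SOS1, the exchange factor that GRB2 brings to RAS, fell from 14.7 ± 1.12 to 5.08 ± 1.19 TPM with a log2 fold change of −1.39 (limma adjusted p = 0.000291). GAB1, a docking protein of MET and EGFR, fell from 2.50 ± 0.477 to 0.623 ± 0.0882 (limma adjusted p = 0.00039). It was below 1 TPM in every EB library and passed the filter through the DMSO libraries alone. It was tested in only 12 of the 18 alternatives at an adjusted p under 0.05. IRS1, the docking protein of the insulin receptors, went from 30.3 ± 10.1 to 13.5 ± 3.92 with overlapping libraries (limma adjusted p = 0.0159), and SHC2, a relative of SHC1, fell from 5.18 ± 1.38 to 1.98 ± 0.11. DOK4 was the single rise, at a log2 fold change of 0.69. The median was −0.53. Lower calls were 8 without DMSO replicate 1 and 7 without DMSO replicate 2 or 3, where 16.9% to 18.5% of all genes were lower. With the length and GC trend removed 7 were lower and 3 higher (21.8% and 24.4% of all genes).

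Of 39 genes of receptor ubiquitination and endocytosis 37 were tested, and 10 fell and 4 rose. These are 27% and 10.8%, near the 25.1% lower and 15.2% higher of all tested genes. Their median, −0.02, stood beside −0.11 for all tested genes and −2.92 for CBL. EPS15, an endocytic adaptor that binds ubiquitinated receptors, fell from 24.0 ± 1.75 to 11 ± 1.61 TPM with a log2 fold change of −1.06 (limma adjusted p = 0.000451). EPN2, an epsin of clathrin-coated pits, was at 17.2, 31.8, 31.0 and 14.6 TPM with DMSO and 8.52, 22, 7.50 and 8.74 with EB (limma adjusted p = 0.0433), and its groups overlapped through EB replicate 2. This call was lost in 8 of the 18 alternatives at an adjusted p under 0.05 and with the study's thresholds. The 4 rises were HGS, UBE2D2, CLTA and SH3GL1, named after their values were seen, at log2 fold changes of 0.43 to 0.67. With the length and GC trend removed the list had 1 lower and 11 higher genes (21.8% and 24.4% of all genes). Higher calls were 9 with median-ratio scaling (26.8% of all genes) and 1 without EB replicate 3 (10.6%). They were 2 with nuclear genes only or without DMSO replicate 2, EB replicate 1 or EB replicate 2 (11.1% to 12.2% of all genes).

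Of 22 feedback inhibitors of receptor signaling 19 were tested, and 8 fell and 1 rose (42.1% and 5.26%, beside 25.1% and 15.2% of all tested genes). DUSP5, a phosphatase of nuclear ERK, rose from 3.30 ± 0.148 to 17.3 ± 2.33 TPM, the largest log2 fold change in the 5 lists at 2.08 (limma adjusted p = 1.28e-05). RASA1, which switches RAS off, fell from 23.1 ± 3.29 to 7.44 ± 1.87 TPM (limma adjusted p = 0.000364), and NF1, with the same role, from 11.6 ± 2.06 to 4.37 ± 1.04 (limma adjusted p = 0.000887). SPRY1, a Sprouty inhibitor, was at 28.9 ± 16.4 and 10.9 ± 3.67 TPM with overlapping libraries (limma adjusted p = 0.0208, a call lost in 2 of those 18 alternatives and with the study's thresholds). DUSP5 and the RAS inhibitors thus moved in opposite directions. The median of the list was −0.46. Lower calls were 5 without DMSO replicate 1, 2 or 3 (16.9% to 18.5% of all genes) and 4 without EB replicate 4 (19.4%). They were 13 without DMSO replicate 4 (36.4% of all genes) or with nuclear genes only (41.4%). With the length and GC trend removed 5 were lower and 2 higher (21.8% and 24.4% of all genes).

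**Figure D4:**
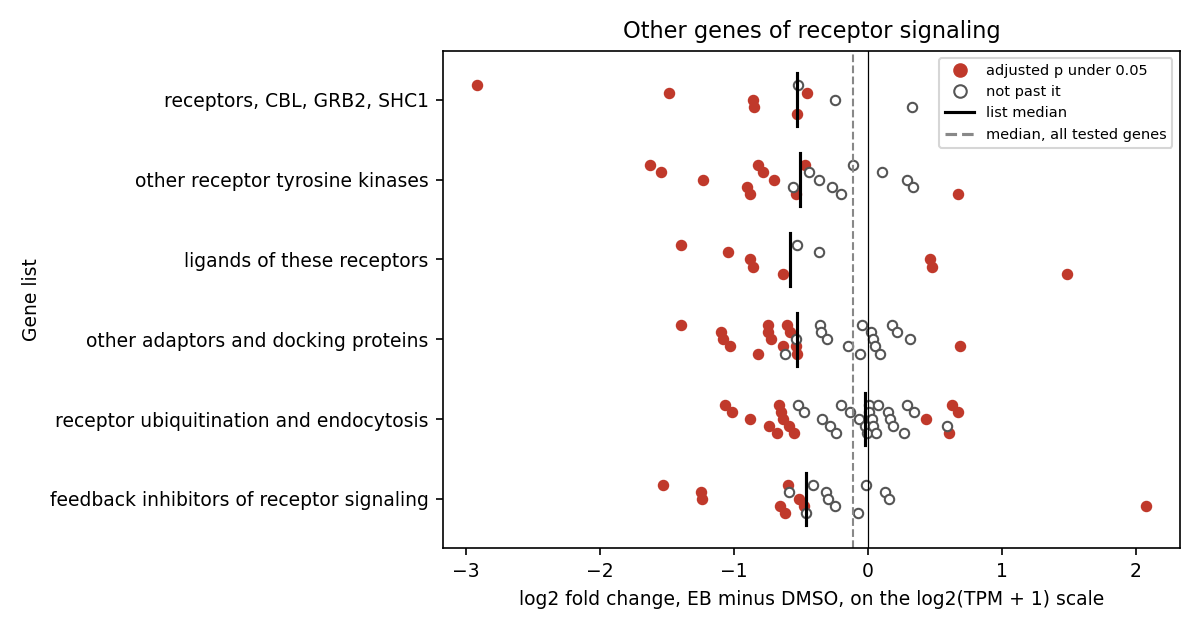
Log2 fold change, EB minus DMSO, on the log2(TPM + 1) scale for the tested genes of each list, with filled points for genes at an adjusted p under 0.05, a black bar for the list median and a dashed line for the median of all tested genes. Most filled points lie below 0, and DUSP5 at 2.08 and HBEGF at 1.49 lie farthest above it.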

How the data were processed

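RNA sequencing of PANC-1 cells treated with DMSO or EB (4 libraries per group) gave 1 table of TPM, which the authors deposited for 20263 human Ensembl identifiers. Per the paper, trimming, mapping, counting and normalization were done in CLC Genomics Workbench, with HISAT2 and StringTie among further tools. The genome is given as GrCM38 in one place and hg38 in another. The methods state 4 biological replicates per group and, elsewhere, triplicates. Columns headed C were read as the control and those headed H, by elimination, as EB, and replicate numbers are those of the columns. Symbols, lengths and positions came from GENCODE release 44 on hg38, and 115 identifiers had no symbol.

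TPM were analysed as log2(TPM + 1) in limma 3.58.1 (R 4.3.3, lmFit and eBayes without trend, Benjamini-Hochberg adjustment) for genes at 1 TPM or more in 4 or more libraries. The fit was tested on simulated data. Motifs and figures used Python 3.11.15. The members and lists were chosen with earlier results of these data known, and the ratio pairs and overlapping genes with the values seen. Named genes are the 10 members and, in each list, up to 4 genes per direction that passed the call and changed by more than 1 on the log2 scale. The 5 genes most like CBL are also named. Alternatives were quantile normalization, median-ratio scaling, a filter at 5 TPM or none, a pseudocount of 0.1, nuclear genes only, removal of a length and GC trend, an intensity trend, the study's thresholds, a replicate block and each library left out. Nuclear genes only without DMSO replicate 4 was added after seeing the data.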

Additional observations from a re-analysis of the deposited data

Results flagged for a closer look

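Each of 52 groups of 4 libraries, 20 of them of the 10 genes, was searched for a library far from the rest, where the gap to the nearest library over the whole range exceeds Dixon's 95% critical value. About 1 in 20 groups passes by chance, and 5 did. For ERBB2, DMSO replicate 4 had 54.7 TPM and the other DMSO libraries 102 to 109. For AXL the same library had 20.8 TPM, below 35.5 to 38.1 in the others. For CBLB it had 1.16 TPM, above 0.342 to 0.444. CBLB in EB replicate 3 was at 1.07 TPM, where the other EB libraries had 0.321 to 0.394. EPN2 in EB replicate 2 was at 22 TPM and in the other EB libraries at 7.50 to 8.74. DMSO replicate 4 is the library in which mitochondrially encoded genes took 39.0% of the TPM.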

How the results depend on the processing

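The study's thresholds, which ask for a larger change, called only CBL lower on the log2(TPM + 1) scale. Under all 18 other alternatives, each at an adjusted p under 0.05, CBL, EGFR and ERBB2 were called lower, with log2 fold changes of −3.95 to −2.37, −1.76 to −0.95 and −1.18 to −0.54, and ERBB3 under the 17 of them in which it was tested. Among these 18 MET and SHC1 each lost the call in 8, AXL gained it in 6 and FGFR1 in 3. The 10 genes were chosen with this contrast known, and every alternative uses these same libraries. These calls therefore describe how far the fit depends on processing and are no further evidence of a difference. GRB2 ranged from −0.58 to 0.12 over the left-out libraries, and without DMSO replicate 1 its sign turned to 0.12. Of the 9 or fewer genes tested, 4 to 7 were called lower and 0 to 1 higher with each library left out. Lower calls were 7 without DMSO replicate 4 or EB replicate 2, where 36.4% and 24.6% of all genes were lower. They were 4 without each other library, where 16.9% to 20.9% were. The 1 higher call was FGFR1 without EB replicate 2 (12.1% of all genes). Higher calls were also 1 with quantile normalization (23.8% of all genes) and 1 with the length and GC trend removed (24.4%). With the study's thresholds 1 was lower (1.54% of all genes). Of the 5 lists, 46 genes were lower and 10 higher in the main fit. Higher calls were 21 with median-ratio scaling (26.8% of all genes). Calls were 26 lower and 24 higher with the length and GC trend removed (21.8% and 24.4% of all genes). With the study's thresholds 3 were lower and 1 higher (1.54% and 0.537% of all genes). With each library left out, 30 to 62 were lower (30 without DMSO replicate 2 or 3) and 6 to 10 higher (6 without EB replicate 3). Of all genes, 16.9% to 36.4% were lower and 10.6% to 15.7% higher in those fits. Where a count moved for another reason than stricter thresholds or fewer samples, the cause was not tested. Over all genes, lower and higher calls were 181 and 63 with the study's thresholds, and 1950 and 1403 without DMSO replicate 3. With its own fit, the paper reports fewer downregulated and more upregulated genes at those thresholds. Deviations of same-numbered libraries had r = 0.18, 0.05, −0.09 and 0.28 for numbers 1 to 4, and those of differently numbered libraries −0.24 to 0.13. The r of numbers 1 and 4 lay above every unmatched value, and the r of numbers 2 and 3 did not. The labels state no pairing, so the main fit did not pair the cultures. With a replicate block 6 of the 10 genes were lower and 0 higher, as in the main fit, 52 list genes were lower and 13 higher, and 3525 and 2231 of all genes. EPN2 lost its call in 8 of the 18 and SPRY1 in 2. Nuclear genes only without DMSO replicate 4 called 7 of the tested genes lower, and 42.2% of all genes. TPM hide the read depth, so low levels such as CBL with EB and CBLB have unknown counting error.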
